A study of Rattus norvegicus with 23 samples.

Results

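The FK506-binding proteins are a family of prolyl isomerases, here represented by 9 genes, Fkbp1b, Fkbp1a, Fkbp2, Fkbp3, Fkbp4, Fkbp5, Fkbp8, Fkbp9 and Fkbp10. Each gene was taken from the 1 probe set whose single gene symbol in the array's annotation table is that gene, so the family makes up 9 of 29211 probe sets on the Affymetrix Rat Gene 1.0 ST array. All 9 passed the signal minimum of 40 on at least 4 arrays and are among the 13339 probe sets tested. The study asked whether raising FKBP1b in the aged rat hippocampus alters memory and gene expression. Fkbp1b is therefore the gene the vector carried, and the other 8 show whether its relatives changed with it.

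RNA came from the dorsal hippocampus of 23 male F344 rats, with 1 array per rat. Young controls (YC, n = 6) were 5 to 6 months old, labelled as sham and described in the design text as not injected. Aged vector controls (AC, n = 5), short-term FKBP1b rats (ST, n = 6) and long-term FKBP1b rats (LT, n = 6) were all 21 months old and had adeno-associated virus injected into both sides of the CA1 region. The AC vector carried enhanced green fluorescent protein, and the ST and LT vector carried rat Fkbp1b. Both vectors used the CaMKII promoter, which is active mainly in excitatory neurons. The labels give injection at 18 months in AC and ST and at 12 months in LT, hence exposures of 3, 3 and 9 months. The design text gives 13 months for AC, 19 for ST and 13 for LT. By that text the AC vector was given at 1.86e13 and the FKBP1b vector at 1.99e12 genome copies per mL, 2 µL per side. AC against YC thus joins age and vector, and by the design text surgery as well. ST or LT against AC joins the transgene with the titer. Injection age and time since injection are joined too, by the labels in LT against AC and by the design text in ST against AC. LT against ST joins them by both sources. By the study's methods the ST and LT rats were chosen for arrays because their FKBP1b expression lay above the median of their parent group. YC and AC rats were picked at random. The Fkbp1b levels of ST and LT below, with their differences and p-values, therefore describe selected animals.

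FK506-binding proteins catalyse the cis-trans isomerization of proline bonds, and many act as docking partners of larger complexes. FKBP1b and its close relative FKBP1a sit on ryanodine receptors, the Ca2+ release channels of the endoplasmic reticulum, and stabilize their closed state. FKBP4 and FKBP5 are cochaperones of Hsp90 with opposing effects on the glucocorticoid receptor, FKBP8 is anchored in the mitochondrial outer membrane, and FKBP2, FKBP9 and FKBP10 reside in the endoplasmic reticulum.

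Of the excitatory neuron markers Camk2a was strong on every array (6330 to 7850 signal units), and Pou3f1 had the lowest median signal (267). Marker levels differed between groups and arrays. Microglial scores (the mean log2 level of 8 markers relative to all arrays) were -0.36 to -0.26 in YC and -0.06 or higher on every aged array. Endothelial and pericyte scores were -0.17 to -0.11 in YC and -0.02 to 0.38 in AC, and scores of leptomeninges and fibroblasts -0.17 to 0.01 in YC and 0.04 to 0.50 in AC. In ST and LT the endothelial and pericyte scores were -0.07 to 0.02 and -0.13 to 0.08. Those of leptomeninges and fibroblasts were -0.25 to -0.10 in ST, below every AC array, and -0.13 to 0.45 in LT. The part of these marker levels in the differences between groups given below was not tested. The array of AC replicate 5 stood apart. Its signal of Wfs1, enriched in CA1 pyramidal neurons, was 580 against 2444 to 2996 on the other arrays, and that of Prox1, a marker of dentate granule cells, was 333 against 632 to 950. This array was also the lowest for Camk2a (6330), Neurod2 (683), Pou3f1 (173) and Rgs14 (422), and its excitatory neuron score was -0.36. It was the highest of all, however, for Slc17a7 (5764), Calb1 (834) and Fibcd1 (905, against a median of 623). Its microglial score was 0.91, and the score of 7 oligodendrocyte markers -0.46. Its RNA integrity number, 8.9, was the lowest in AC. A further 4 arrays, AC replicates 3 and 4 and LT replicates 2 and 5, were high in choroid plexus genes, with scores over 15 genes of 2.45 to 2.99. The score was at most -0.39 in YC and -0.65 in ST, and the lowest values in AC and LT were -0.75 and -0.35. Of the defining genes Ttr, which encodes transthyretin, ranged from 116 to 16411 and Kl, which encodes klotho, from 41 to 2347, and no marker was at 0.

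The 250 bases before the annotated start of Fkbp1b, and of Fkbp1a for comparison, are shown because they belong to the endogenous genes. The vector drove its copy of Fkbp1b from the CaMKII promoter instead. Both are written 5′ to 3′ on the gene's strand from RefSeq (rat build GRCr8), Fkbp1b at chr6:33568130-33568379 on the minus strand and Fkbp1a at chr3:160500498-160500747 on the plus strand. Capitals mark the GC box, GGGCGG on either strand.
Fkbp1b: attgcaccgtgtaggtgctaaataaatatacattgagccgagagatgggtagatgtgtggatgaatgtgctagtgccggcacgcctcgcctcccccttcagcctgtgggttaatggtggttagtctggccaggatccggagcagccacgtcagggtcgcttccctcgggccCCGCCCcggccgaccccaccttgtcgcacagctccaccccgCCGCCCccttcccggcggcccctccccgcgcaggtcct
Fkbp1a: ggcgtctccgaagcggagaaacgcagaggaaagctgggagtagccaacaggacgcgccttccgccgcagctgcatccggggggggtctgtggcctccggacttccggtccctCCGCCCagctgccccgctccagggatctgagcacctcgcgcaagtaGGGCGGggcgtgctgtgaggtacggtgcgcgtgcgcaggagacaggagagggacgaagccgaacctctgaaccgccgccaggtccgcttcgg
Such windows were found for 7 of the 9 members (not Fkbp3 and Fkbp10). The Fkbp1b window had 64.4% G and C bases, 19 CG dinucleotides and 2 GC boxes. The Fkbp1a window had 69.2%, 27 and 2. All 7 windows held at least 1 GC box, against 30.5% of the 33469 windows of the same length, and their CG dinucleotides numbered from 8 in Fkbp2 to 41 in Fkbp5, with a median of 5 over all windows. TATAAA was in none of the 7 and in 12.9% of all windows on either strand.

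Fkbp1b signal was 411, 378, 353, 362, 363 and 373 in YC replicates 1 to 6. In aged controls it was 458, 379, 374, 364 and 428. The groups overlapped, and 2 of 5 AC arrays lay above every YC array. Means were 373 ± 20.4 (SD, n = 6) in YC and 401 ± 40.5 (SD, n = 5) in AC. The log2 difference was 0.10 (SE 0.13, 95% interval -0.17 to 0.37), which did not pass the test (limma adjusted p = 0.664; two-sided exact permutation p = 0.18). The interval takes in both a slight fall and a rise. In bulk tissue such as this, a change in the number of cells expressing a gene cannot be told apart from a change in RNA per cell.

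In short-term FKBP1b rats the Fkbp1b signals were 703, 427, 764, 641, 749 and 881. Of these, 5 of 6 arrays lay above every AC array. ST replicate 2, at 427, was inside the AC range. The mean was 694 ± 153 (SD, n = 6), 1.70-fold the AC level on the log2 scale (difference 0.76, SE 0.13, 95% interval 0.50 to 1.03). Over these groups alone the two-sided exact permutation p was 0.00866. Across all genes tested Fkbp1b ranked first by p, but its adjusted p of 0.0851 in limma missed the threshold. Without ST replicate 2 the difference was 0.90 (limma adjusted p = 6.94e-05), and without AC replicate 1, the highest AC array, it was 0.81 (adjusted p = 0.0251). On ST replicate 2 the excitatory neuron score was 0.06, within the ST range of -0.01 to 0.11, and the microglia score of 0.39 was the highest in ST.

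In long-term FKBP1b rats the signals were 859, 937, 843, 1052, 1101 and 1217. All 6 lay above every AC and YC array. Fkbp1b rose 2.49-fold over AC, to 1002 ± 147 (SD, n = 6), a log2 difference of 1.31 (SE 0.13, 95% interval 1.05 to 1.58; limma adjusted p = 8.95e-06). The two-sided exact permutation p was 0.00216, the smallest that 6 against 5 arrays can give. No other tested probe set differed by as much between LT and AC, and none had a smaller p. With AC replicates 3 and 4 and LT replicates 2 and 5 left out the difference was 1.22 (adjusted p = 0.00972), and it was called with every single array left out.

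LT stood above ST. Of the LT arrays, 4 of 6 exceeded the highest ST array, 881, and the other two, 859 and 843, lay below ST replicate 6 only. The log2 difference was 0.55 (SE 0.12, 95% interval 0.29 to 0.81), or 1.46-fold. The two-sided exact permutation p was 0.00649, and the limma adjusted p of 0.123 did not pass. Including the probe sets without a single listed gene moved the adjusted p to 0.0472. RNA integrity numbers were 9.4 to 9.7 in ST and 8.9 to 9.5 in LT. With them as a covariate the difference was 0.54 (limma adjusted p = 0.183). The order of mean level was YC, AC, ST and LT, of which YC and AC did not differ beyond their spread.

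**Figure D1:**
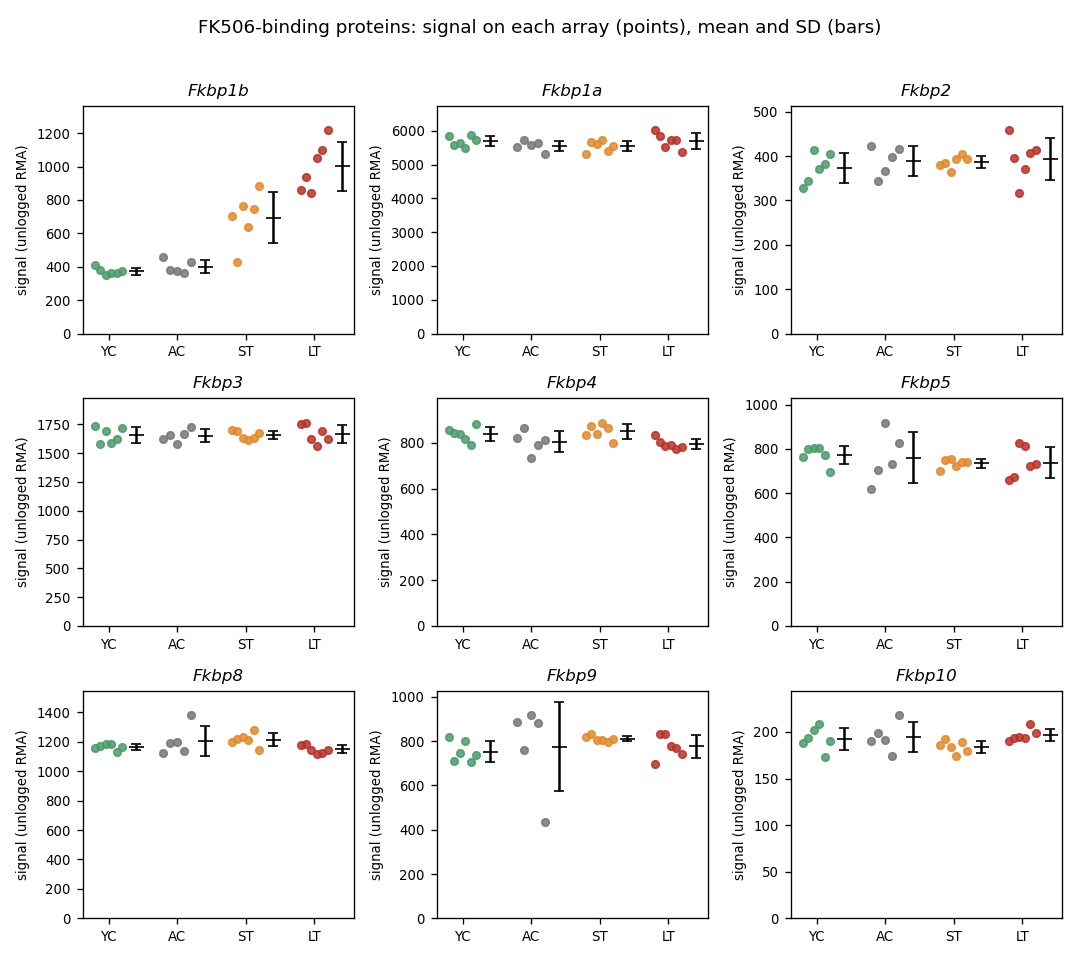
Unlogged signal (vertical axes, from 0, on a scale of its own for each gene) of the 9 FK506-binding protein genes on each of the 23 arrays, by group; points are arrays and black bars the mean and SD. The LT arrays of Fkbp1b sit between 843 and 1217, all above the AC arrays, while the groups of the other 8 genes overlap. The share of all tested probe sets with groups set apart in this way was not computed.

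The spread of Fkbp1b also differed between groups. The SD of log2 signal was 0.08 in YC, 0.14 in AC, 0.36 in ST and 0.21 in LT. The ST value was larger than that of 99.6% of the tested probe sets, with ST replicate 2 lying at -0.67 from its group mean. In LT the value was larger than that of 93.9%, with no array apart from the rest.

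Of the 9 members, 0 were called in AC against YC, where 9.75% of all tested probe sets were called at an adjusted p under 0.05 by limma. None was called in ST against AC, where 0% of all were (0 of 13339, with 1310 at an unadjusted p under 0.05). Fkbp1b alone was called in LT against AC, against 0.075% of all. None was called in LT against ST, against 0.0075% of all. At an unadjusted p under 0.05 none of the other 8 members differed in AC against YC or in LT against AC, 1 did in ST against AC and 2 in LT against ST. Over all tested probe sets the share at that level was 27.4% in AC against YC, 9.82% in ST against AC, 12.6% in LT against AC and 12.4% in LT against ST.

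Over the other 8 members the log2 differences ran from -0.06 to 0.06 in AC against YC, from -0.07 to 0.11 in ST against AC, from -0.07 to 0.05 in LT against AC and from -0.10 to 0.09 in LT against ST. The median size of these differences was 0.04, 0.02, 0.03 and 0.05, beside 0.07, 0.04, 0.05 and 0.05 over all tested probe sets. Their two-sided exact permutation p ran from 0.00433 (Fkbp10, LT against ST) to 0.996 (Fkbp9, AC against YC). Those printed below for single members are the lowest of them. They are not adjusted, and the share of all tested probe sets at that level was not computed. The plot of differences shows how far Fkbp1b stood from the rest after vector treatment. ST and LT were set against the same AC arrays, so their values are not independent.

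**Figure D2:**
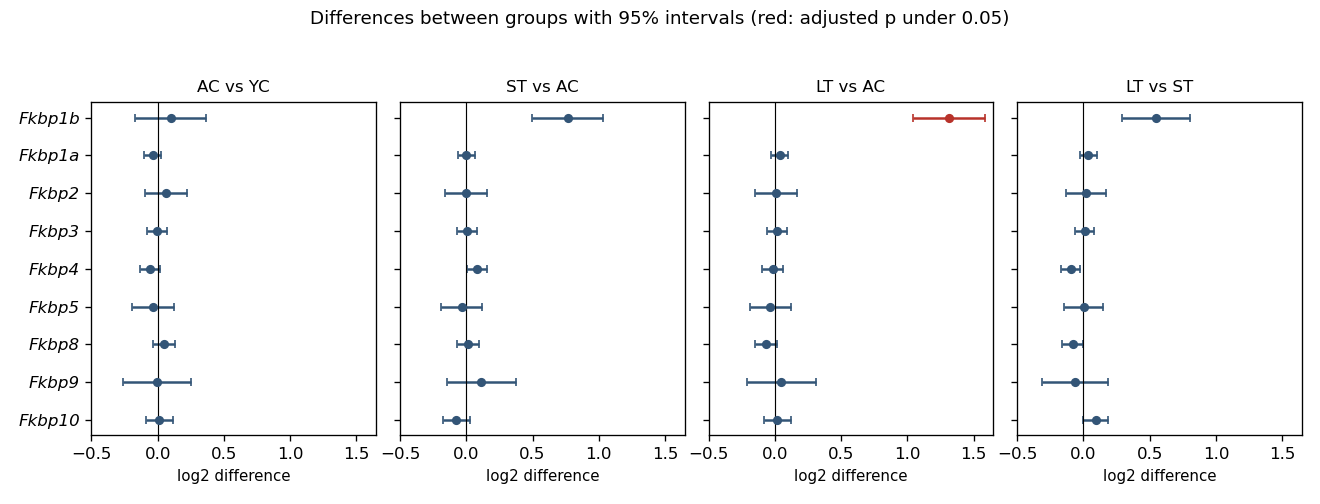
Log2 difference of mean signal (horizontal axes) for each gene in the 4 comparisons, with 95% intervals as bars and red where the adjusted p is under 0.05. Fkbp1b reaches 1.31 in LT against AC and is the only red point, and the points of the other 8 genes stay between -0.10 and 0.11.

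Fkbp1a encodes FKBP12, the closest relative of FKBP1b and the main cellular receptor of the drugs FK506 and rapamycin. Its signal was 5323, 5660, 5616, 5741, 5399 and 5553 in ST and 5520, 5729, 5582, 5629 and 5309 in AC. The LT arrays gave 6014, 5833, 5535, 5725, 5717 and 5367, and the YC arrays 5841, 5588, 5643, 5489, 5867 and 5731. All 4 groups overlapped. The LT minus AC difference was 0.04 with a 95% interval of -0.03 to 0.10, and the ST minus AC difference lay within -0.07 to 0.06.

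Fkbp4 encodes FKBP52, which favours steroid receptor activity within the Hsp90 complex. It was 835, 873, 840, 888, 867 and 800 in ST and 833, 805, 788, 790, 773 and 782 in LT. Of the LT arrays, 4 of 6 lay below every ST array. LT was lower than ST by a log2 difference of -0.10 (95% interval -0.17 to -0.02, two-sided exact permutation p = 0.00866), which did not pass across all genes (limma adjusted p = 0.283). In AC the signals were 820, 863, 736, 792 and 814 and in YC 856, 842, 837, 819, 792 and 883. ST minus AC was 0.08 (adjusted p = 0.489) and LT minus AC -0.02 (adjusted p = 0.883).

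Fkbp5 encodes FKBP51, which is induced by glucocorticoids and restrains their receptor. Its groups centred close together, at 773 ± 41.9 in YC (SD, n = 6), 760 ± 115 in AC (n = 5), 735 ± 21.3 in ST and 738 ± 69.1 in LT (n = 6 each). The AC arrays spread most, with 621, 703, 918, 731 and 827, whereas all ST arrays lay between 698 and 756. No comparison passed, with log2 differences between -0.04 and 0.00 and limma adjusted p from 0.802 upward.

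Fkbp8 encodes FKBP38, which holds Bcl-2 family proteins and mitophagy factors at mitochondria. AC replicate 5 read 1380 against 1121 to 1197 on the other AC arrays. In ST the signals were 1199, 1218, 1233, 1211, 1277 and 1144, and in LT 1178, 1183, 1143, 1116, 1121 and 1145. Of the LT arrays, 3 of 6 lay below every ST array. The LT minus ST difference of -0.08 had an exact permutation p of 0.0152 (two-sided) and a limma adjusted p of 0.398. LT minus AC was -0.07 (adjusted p = 0.494), and -0.02 without AC replicate 5. YC arrays were the tightest, from 1127 to 1183.

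Fkbp9 encodes a large FK506-binding protein of the endoplasmic reticulum. Its AC signals were 885, 761, 917, 882 and 433, the last on the AC replicate 5 array described above. YC arrays gave 818, 712, 746, 802, 705 and 735. With all arrays AC minus YC was -0.01 (SE 0.13, limma adjusted p = 0.985). Without AC replicate 5 the difference was 0.19 (adjusted p = 0.0268), and Fkbp9 was then the 1 member called in that comparison. The signals of ST lay within 798 to 832 and those of LT within 698 to 834. Without that array ST minus AC was -0.08 and LT minus AC -0.15, and neither passed. The part of that array's neuronal and microglial marker levels in this value was not tested.

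Fkbp10 encodes FKBP65, a chaperone of collagen. It was 186, 192, 184, 174, 189 and 180 in ST and 190, 193, 195, 193, 208 and 199 in LT. Of the LT arrays, 5 of 6 exceeded every ST array. LT minus ST was 0.09 (95% interval -0.004 to 0.188, two-sided exact permutation p = 0.00433, limma adjusted p = 0.415). Against AC, whose signals were 190, 199, 191, 174 and 218, the difference was 0.02 in LT and -0.07 in ST, neither of which passed. YC arrays ranged from 173 to 208.

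Fkbp3 encodes FKBP25, a nuclear member that binds nucleic acids, and its group means were 1658 ± 67.5 in YC, 1650 ± 57.7 in AC, 1656 ± 36.0 in ST and 1668 ± 80.4 in LT (SD). Its differences were within -0.01 and 0.01 in all 4 comparisons. Fkbp2 encodes FKBP13 of the endoplasmic reticulum lumen with signals of 327 to 414 in YC. The range was 343 to 423 for AC, 364 to 405 for ST and 317 to 458 for LT, with differences between -0.01 and 0.06. Its groups overlapped throughout. RefSeq lists a neighbouring gene, Fkbp2l1, and whether the Fkbp2 probe set also reads it was not tested.

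After removal of group means, arrays on which Fkbp8 was high tended to be low in Fkbp9 (Pearson r = -0.75 over 23 arrays), and Fkbp8 and Fkbp10 varied in the same direction (r = 0.62). These are descriptions across arrays that include AC replicate 5, which is high in Fkbp8 and low in Fkbp9, as the plot of deviations shows. Among 13134 probe sets without blank values, the 5 most like Fkbp1b by this measure were Smug1 (r = 0.74), Pcnx3, Tsen34, Nudt9 and Brd9 (0.64 to 0.68), and the least like were Traf3ip2 (-0.69), Scin, H2ac4, Pfn3 and Srprb (-0.68 to -0.67). For Fkbp5 they were Cd55 (r = 0.89), Impa2 (0.89), Bcam, Lrg1 and Cd163 (0.81 to 0.84), and at the other end Cnot9 (-0.78), Hspa8, Ppp1cc, Rasgrp3 and Naalad2 (-0.76 to -0.74). For Fkbp10 they were Cth (r = 0.80), Syt3, Rasa3, Anxa4 and Mdh1 (0.76 to 0.77), and Nme7 (-0.80), Arhgef12 (-0.80), Arl6, Ssr4 and Cpne3 (-0.73). For Fkbp1b the values include ST replicate 2, which lay at -0.67 from its group mean. Spearman rho with Fkbp1b was 0.73 for Smug1 and 0.71 for Brd9, but 0.45 for Pcnx3 and -0.41 for Pfn3. The arrays share the same tissue differences for all these genes, and these values carry no test.

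**Figure D3:**
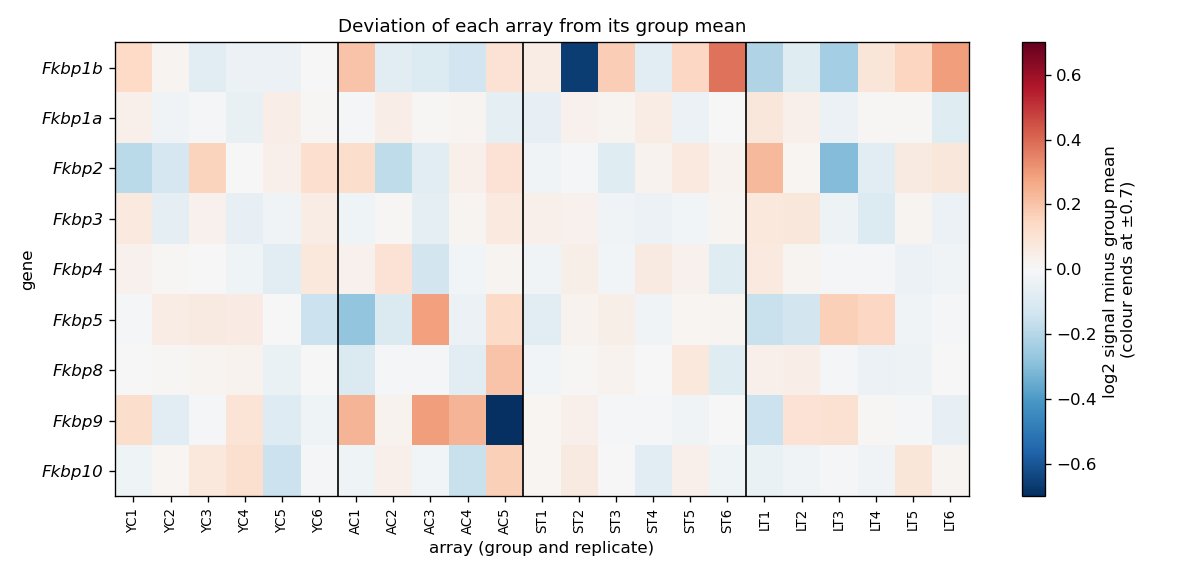
Log2 signal of each gene (rows) on each array (columns, by group and replicate) minus its group mean; red is above and blue below, and the colour scale ends at 0.7 in each direction. The darkest fields are ST replicate 2 for Fkbp1b (signal 427) and AC replicate 5 for Fkbp9 (signal 433).

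Within ST and within LT the level of Fkbp1b was set against that of each other member, 16 relations in all. For Fkbp4, Pearson r was -0.65 in ST (Spearman rho -0.77) and -0.65 in LT (rho -0.60), with exact permutation p of 0.161 and 0.142 for r and 0.103 and 0.242 for rho (n = 6 each). Without the 2 arrays farthest from the median of Fkbp1b r was -0.62 and -0.98. For Fkbp9 r was -0.75 in ST (rho -0.31; exact permutation p = 0.0958 and 0.564, n = 6), and -0.15 without the 2 farthest arrays, so it rested on those. The same 4 LT arrays gave -0.96 for Fkbp1a and -0.90 for Fkbp8. Over all 6 LT arrays their r was -0.55 and -0.53, so the value for Fkbp4 does not stand alone. Other values changed sign when the 2 farthest arrays were left out. In ST, Fkbp10 went from -0.44 to 0.83 and Fkbp8 from -0.23 to 0.61. In LT, Fkbp2 went from 0.26 to -0.69 and Fkbp9 from -0.19 to 0.43. Values of r over 4 arrays are thus unstable. Fkbp10 had an r of 0.62 in LT (rho 0.58; exact permutation p = 0.181 and 0.233, n = 6). No relation passed adjustment over the 16, the lowest adjusted p being 0.722 for r and 0.856 for rho.

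Genes around the family were taken from 7 lists. None of their genes was called in ST against AC, LT against AC or LT against ST, and 10 of 96 were called in AC against YC. That is 10.4%, close to the 9.75% of all tested probe sets. Of 19 tested partners of FKBP12 and FKBP1b, 2 rose and 2 fell in AC against YC, 21.1% of the list against the same 9.75%. Itpr3, an IP3 receptor that releases Ca2+ from the endoplasmic reticulum, fell from 142 ± 6.74 in YC to 122 ± 5.45 in AC (log2 difference -0.22, SE 0.04, limma adjusted p = 0.00322). Another IP3 receptor, Itpr2, rose by 0.20 (SE 0.06, adjusted p = 0.0443), but by 0.13 without AC replicate 5 (adjusted p = 0.0867), and it was called in 11 of 23 fits that left out 1 array. Ppp3cb, a catalytic subunit of the phosphatase calcineurin, fell by 0.16 on the log2 scale (SE 0.04, adjusted p = 0.00986). Tgfbr1, the TGF-beta type I receptor that FKBP12 holds inactive, rose by 0.16 (SE 0.05, adjusted p = 0.0394). The median difference of the list was 0.03, beside -0.01 over all tested probe sets. Without the 4 choroid-rich arrays Itpr3 and Tgfbr1 were called, whereas Ppp3cb (-0.16, adjusted p = 0.0713) and Itpr2 (0.22, adjusted p = 0.0946) were not. Without AC replicate 5 Tgfbr1 (0.14, adjusted p = 0.0807) was not called. Against the same AC arrays the LT differences of these genes were 0.13 (Itpr3), 0.12 (Ppp3cb), -0.08 (Itpr2) and -0.04 (Tgfbr1), and none passed. The genes were named because AC differed from YC, so opposite signs against the same AC arrays are no test of a reversal.

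Of 20 tested genes of endoplasmic reticulum and collagen folding, 2 rose and 1 fell in AC against YC, 15.0% of the list. P4ha1, a subunit of the collagen prolyl hydroxylase, rose by 0.19 (SE 0.05, limma adjusted p = 0.0147), and by 0.17 without the choroid-rich arrays, where it was not called (adjusted p = 0.0777). Crtap, part of a complex that modifies collagen prolines, rose by 0.35 (SE 0.10, adjusted p = 0.0361), but by 0.16 (adjusted p = 0.112) with the 4 choroid-rich arrays left out. Col3a1, a fibrillar collagen chain, fell by 0.21 on the log2 scale (SE 0.06, adjusted p = 0.0304), and was as large without those arrays (-0.21), though not called (adjusted p = 0.122). The list's median difference in AC against YC was 0.05.

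Single genes were called on 3 other lists, 7.69%, 6.25% and 7.14% of their tested genes in the order below and thus under the 9.75% of all tested probe sets. Ppif, the mitochondrial cyclophilin that regulates the permeability transition pore, fell by 0.27 on the log2 scale and was the only 1 of 13 cyclophilins and parvulins (limma adjusted p = 0.0476). It fell by 0.16 without AC replicate 5 (adjusted p = 0.0877), and was called in 4 of 23 fits that left out 1 array and not without the choroid-rich arrays (-0.33, adjusted p = 0.0724). Cdc37, an Hsp90 cochaperone for kinases, rose by 0.15, the only 1 of 16 Hsp90 and steroid receptor partners (adjusted p = 0.0280), and by 0.12 without AC replicate 5 (adjusted p = 0.0617). Mt2A, a metallothionein, rose by 0.23, the only 1 of 14 glucocorticoid-induced genes (adjusted p = 0.0237), and by 0.14 (adjusted p = 0.167) without the 4 choroid-rich arrays. None of 6 other FK506-binding proteins was called, with Fkbp14 at 0.20 (adjusted p = 0.102) and Fkbp7 at 0.09 (adjusted p = 0.246). None of 9 mitochondrial partners of FKBP38 was called, with Fundc1 at 0.14 (adjusted p = 0.0681) and Pink1 at 0.11 (adjusted p = 0.0747). The median differences of these 5 lists were -0.01, -0.04, 0.13, 0.04 and 0.03, in the order given here.

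**Figure D4:**
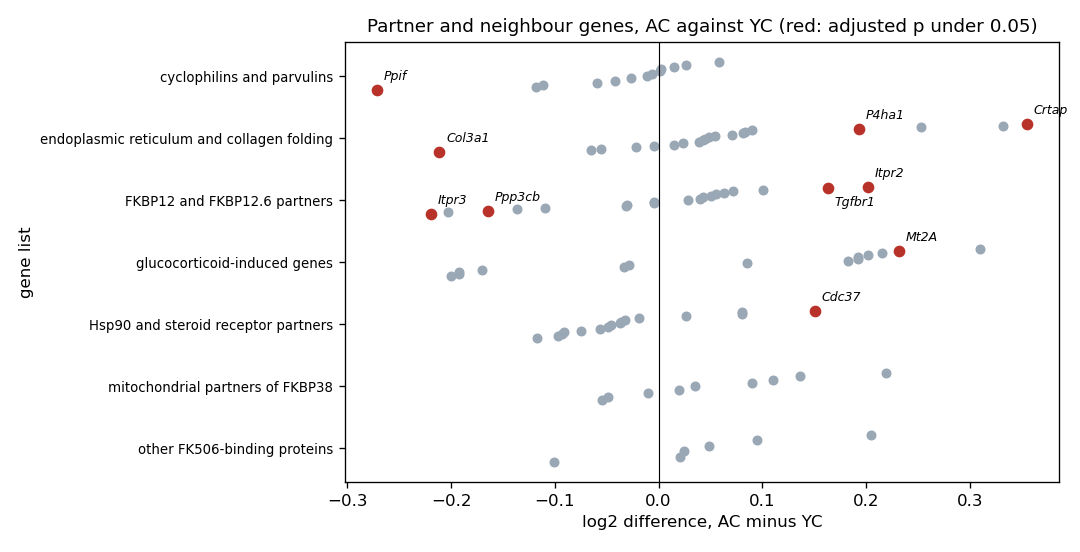
Log2 difference of AC minus YC (horizontal axis) for each tested gene of the 7 lists (rows); red points with names have an adjusted p under 0.05. The 10 named genes fall on both sides of 0, and the partner list holds 4 of them.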

How the data were processed

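RNA of 23 dorsal hippocampi was hybridized to 1 Affymetrix Rat Gene 1.0 ST array per rat. Per the study's methods, the authors computed the deposited signal intensities with the Robust Multiarray Average algorithm at the transcript level. The values are unlogged, rounded and partly blank (758 blanks, none in the members); for Partek and RMA the version is not given in the sources used here. Signal scale, not read depth, sets precision on arrays, and the number of arrays limits it. Array medians were 134 to 141 and RNA integrity numbers 8.9 to 9.8. The study measured Fkbp1b by qRT-PCR and treated the array as lacking its probe set, whereas the annotation used here lists 1; whether its probes lie within the vector's insert was not examined.

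Groups came from the sample titles. Probe sets were kept if 4 or more arrays reached a signal of 40 and the annotation gave a single gene symbol. Log2 signals of these 13339 were fitted with limma 3.58.1 in R 4.3.3, with 1 mean per group. Benjamini-Hochberg adjustment ran over all of them, with a threshold of 0.05. Fold changes are 2 to the power of the log2 difference. Single values were also compared by exact permutation of arrays. On simulated data the limma step recovered 26 to 46% of changes of 0.2 log2 units and 96 to 98% of changes of 0.8. The simulation used planted changes in independent noise, without effects shared by the genes of an array. In the real ST against AC comparison 0 of 13339 probe sets were called, and Fkbp1b missed the threshold at 0.76. The simulated shares therefore do not give the sensitivity of the comparisons reported here. Scores are mean log2 signals of a marker list, each gene centred over all arrays.

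The members and gene lists were chosen with earlier results of these data known. All 9 members are named. Of each list, up to 4 called genes are named, or else the 2 with the smallest p. For Fkbp1b, Fkbp5 and Fkbp10 the 5 probe sets with the highest and the 5 with the lowest correlation are named, and Ttr and Kl stand for the choroid plexus. Marker lists also covered leptomeninges, interneurons, astrocytes, endothelial cells and neighbouring cortex and thalamus. The 16 alternatives left out each array or the 4 choroid-rich arrays, used the analysis of variance of the methods (followed by Fisher's protected LSD, here with Benjamini-Hochberg adjustment), or changed the treatment of values over 2 SD, filter, probe set selection, normalization, weights, variance model, covariates, block or groups fitted. Promoter sequences are from RefSeq (GRCr8). Protein sequences were not used here.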

Additional observations from a re-analysis of the deposited data

Results flagged for a closer look

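In 2 of the 36 combinations of a member and a group, 1 array lay far from the others, where chance gives about 1 in 20. For Fkbp9, AC replicate 5 read 433 against 761 to 917 on the other AC arrays, a gap of 0.751 of the group's whole log2 range. For Fkbp5, YC replicate 6 read 695 against 764 to 806, a gap of 0.639 of the range. The low Fkbp1b signal of ST replicate 2 did not reach the same limit.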

How the results depend on the processing

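The rise of Fkbp1b in LT against AC was called under all alternatives, with differences of 1.22 to 1.36. ST minus AC ran from 0.69 to 0.90 with single arrays left out, and was called at an adjusted p only without AC replicate 1 (0.81) or ST replicate 2 (0.90). The number of members called was then 1 instead of 0 in each case, a range of 0 to 1. LT minus ST (0.55) passed at an adjusted p only when all probe sets were tested, which made 1 member called. Without AC replicate 5 Fkbp9 was called in AC against YC, so members called there, and calls among the other 8 members in all comparisons, ranged from 0 to 1. No other adjusted setting called any of those 8. Over the 4 comparisons, calls among the genes of the 7 lists numbered 10 in the report and 3 to 17 with single arrays left out (3 without YC replicate 2, 17 without AC replicate 1), 2 by the methods' analysis of variance and LSD with Benjamini-Hochberg adjustment and 4 without the 4 choroid-rich arrays. Of the 23 fits that left out 1 array, Itpr3, Ppp3cb and P4ha1 were called in 23, Mt2A in 20, Cdc37 in 18, Tgfbr1 in 17, Crtap in 16, Col3a1 in 15, Itpr2 in 11 and Ppif in 4. Over all tested probe sets, calls in AC against YC were 1300 in the report and 354 to 2355 under alternatives, 0 and 0 to 65 in ST against AC, 10 and 2 to 118 in LT against AC, and 1 and 1 to 113 in LT against ST. The study's methods use that analysis of variance at an unadjusted p. With its threshold, an alternative chosen after seeing the data, 0 members were called in AC against YC, 2 in ST against AC (Fkbp1b and Fkbp4), 1 in LT against AC (Fkbp1b) and 2 in LT against ST (Fkbp1b and Fkbp4), where 18.3%, 6.09%, 9.11% and 8.19% of all tested probe sets were. With the replicate number as a block, Fkbp1b differences were 0.14, 0.72, 1.27 and 0.55 for AC minus YC, ST minus AC, LT minus AC and LT minus ST, and no member's call changed. Same-numbered arrays of different groups had a median correlation of deviations of -0.005 (33 pairs, -0.39 to 0.21). For arrays with different numbers it was -0.0003 (165 pairs, -0.43 to 0.57). A median near that of other pairs cannot exclude that some numbers share a processing order.

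Small differences of the other members changed sign, none of them called apart from Fkbp9 as given above. AC minus YC became 0.04 for Fkbp9 by the analysis of variance, 0.02 for Fkbp9 and 0.01 for Fkbp3 with equal medians, -0.01 for Fkbp10 with quantile normalization, 0.16 for Fkbp9 and -0.02 for Fkbp10 with array weights, 0.03 for Fkbp9 with RNA integrity as covariate, and 0.01 for Fkbp3 without the choroid-rich arrays. ST minus AC became 0.01 for Fkbp2 with equal medians, -0.01 for Fkbp3 with quantile normalization, 0.02 for Fkbp2 and -0.05 for Fkbp9 with array weights, -0.01 for Fkbp3, 0.04 for Fkbp5 and -0.02 for Fkbp8 without the choroid-rich arrays, and 0.02 for Fkbp2 and -0.01 for Fkbp8 with the choroid score as covariate. LT minus AC became 0.01 for Fkbp4 and -0.12 for Fkbp9 with array weights, and -0.02 for Fkbp2, -0.03 for Fkbp3, 0.08 for Fkbp5 and -0.06 for Fkbp10 without the choroid-rich arrays. LT minus ST became -0.02 for Fkbp2 and Fkbp3 with equal medians, 0.09 for Fkbp9 with RNA integrity, -0.02 for Fkbp3 without the choroid-rich arrays, and -0.01 for Fkbp2 and Fkbp3 with the choroid score. With single arrays left out, AC minus YC ranged from -0.02 to 0.01 for Fkbp3, -0.11 to 0.03 for Fkbp5, -0.08 to 0.19 for Fkbp9 and -0.03 to 0.05 for Fkbp10. ST minus AC ranged from -0.05 to 0.03 for Fkbp2, -0.01 to 0.02 for Fkbp3, -0.11 to 0.04 for Fkbp5, -0.01 to 0.06 for Fkbp8 and -0.08 to 0.19 for Fkbp9. LT minus AC ranged from -0.03 to 0.07 for Fkbp2, -0.05 to 0.01 for Fkbp4, -0.10 to 0.04 for Fkbp5, -0.15 to 0.12 for Fkbp9 and -0.02 to 0.06 for Fkbp10. LT minus ST ranged from -0.03 to 0.08 for Fkbp2 and -0.01 to 0.03 for Fkbp3. The cause was not tested.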
